A study of Mus musculus with 7 samples.

Results

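The nuclear-encoded subunits of the mitochondrial respiratory chain were followed in 7 RNA-seq libraries of mouse motor neuron cultures in which lentiviruses were used to raise or lower miR-218, a microRNA known from motor neurons. Members were every gene of the deposited count table whose symbol names an Nduf, Sdha to Sdhd, Uqcr, Cyc1, Cycs, Cox4 to Cox8 or Atp5 gene, which gave 86 of 23366 genes. By symbol, 35 were placed in complex I, 4 in complex II, 9 in complex III, 20 in complex IV and 17 in complex V. Cytochrome c (Cycs) was the last. Atp5s and Atp5sl, named Dmac2l and Dmac2 in RefSeq, were counted with complex V by their Atp5 symbols alone. Ndufa4 and Ndufa4l2 were counted with complex IV, where the Ndufa4 protein is now placed. Of the members, 79 had enough counts to be tested, and Cox4i2, Cox6a2, Cox7a1, Cox8b, Cox8c, Ndufa4l2 and Ndufs5 did not.

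The respiratory chain sits in the inner mitochondrial membrane. Complexes I and II pass electrons from NADH and succinate to ubiquinone, complex III passes them to cytochrome c, and complex IV passes them to oxygen. Proton pumping by complexes I, III and IV drives complex V, the ATP synthase. Neurons depend heavily on this route for ATP, and motor neurons with long axons are known for a high energy demand. Several complex IV subunits exist as isoforms, with some forms known from heart and skeletal muscle, testis or lung.

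All groups were primary cultures from the spinal cord of C57BL/6 embryos labelled embryonic day 13.5, enriched over an Optiprep density gradient, grown with CNTF and GDNF, and given 200 µM fluorodeoxyuridine after 5 days against glial growth. The control group (2 libraries) carried an empty lentivirus, the KD group (2 libraries) a lentivirus for miR-218 knockdown, and the OE group (3 libraries) a lentivirus for miR-218 overexpression. Libraries summed to between 1591812 and 3360686 counts, with both controls the shallowest. Whether each library had its own culture is not stated, so a p-value here reflects spread among these samples alone, and part of that spread may be technical.

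The Mir218-1 row, the precursor gene of miR-218 on mouse chromosome 5, had 107 and 81 counts in control, 137 and 179 in KD, and 1126, 670 and 938 in OE. OE stood above control (log2 fold change 2.47, standard error [SE] 0.16, adjusted p 3.32e-12), and KD did not differ from control by this test (log2 fold change -0.13, SE 0.19, adjusted p 0.727). These counts do not measure the mature microRNA. Of the defining motor neuron genes, Mnx1 had no count in any library, Chat had between 2 and 26 counts and Slc18a3 at most 1 per library. The 8 motor neuron markers summed to between 9.43 and 21.2 CPM (counts scaled to a common library size), while 10 pan-neuronal markers summed to between 5530 and 7658 CPM. In bulk cultures, fewer cells of a type and less RNA per cell cannot be told apart.

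Most subunits moved little, and Uqcrb, a small complex III subunit, was the clear exception: its RNA fell 1.72-fold in KD and did not differ between OE and control. Differences were tested gene by gene with edgeR's quasi-likelihood test in 1 fit of all genes, and called genes are those with a fold change beyond 1.5 and a p below 0.05 after Benjamini-Hochberg adjustment. Between OE and control, 0 of the 79 tested members were called, against 4.91% of all 12134 genes tested. Here 6 members had an unadjusted p under 0.05, beside 2330 of the 12134 genes, and DESeq2 and limma-voom also called 0. Between KD and control, 2 members were called, Cox6b2 higher and Uqcrb lower, against 11.7% of all genes. Between OE and KD, Uqcrb alone was called, and it was higher in OE, against 5.3% of all genes. An unadjusted p under 0.05 was held by 13 members in KD against control, beside 3321 of the 12134 genes. In OE against KD it was held by 18 members, beside 2437 genes. These counts over all genes are the background for the unadjusted counts by complex and list below.

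**Figure D1:**
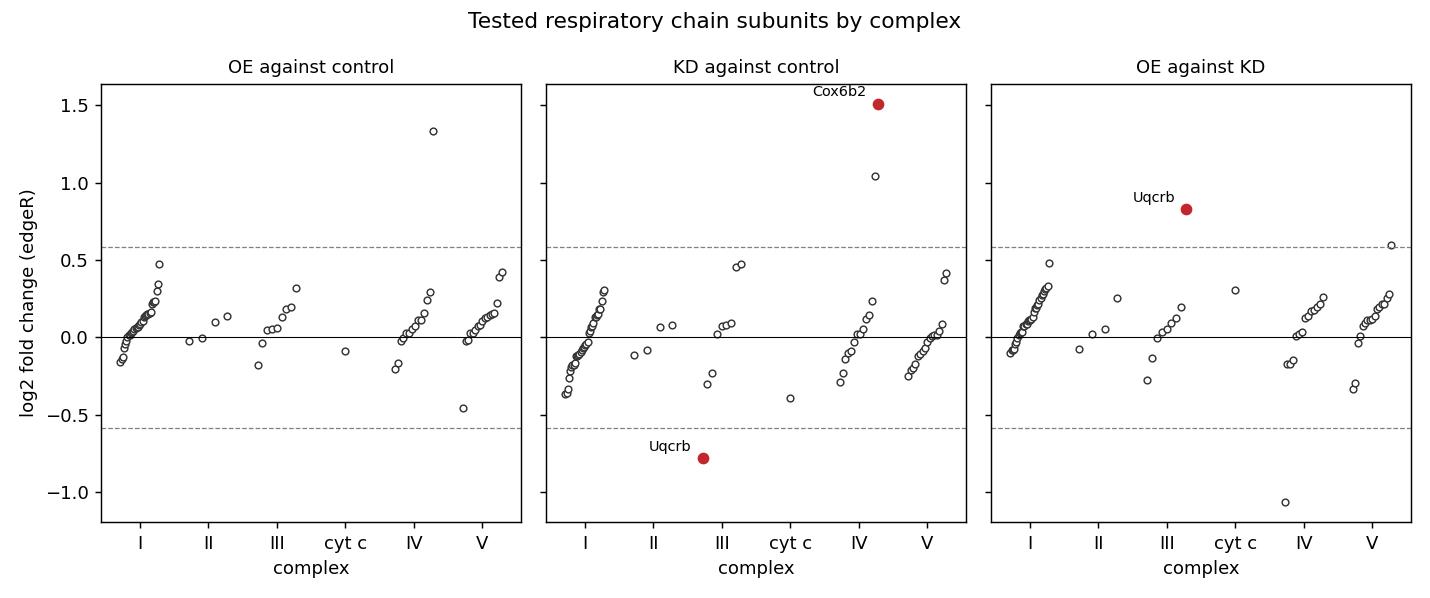
Log2 fold change (edgeR, vertical axis) of the 79 tested subunits, drawn as 1 point each and ordered within their complex (horizontal axis), for the 3 comparisons. Dashed lines mark a fold change of 1.5, and filled red points mark called members: Cox6b2 (1.51) and Uqcrb (-0.78) in KD against control, and Uqcrb (0.83) in OE against KD.

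With no minimum fold, adjusted p alone passed 0 members in OE against control, where it passed 6.8% of all genes. It passed 7 members in KD against control, beside 15% of all genes: Cox6b2 and Uqcr10 were higher, and Uqcrb, Cycs, Ndufb5, Atp5f1 and Cox6b1 were lower. In OE against KD it passed 7 members, all higher in OE, beside 8.02% of all genes: Uqcrb, Cycs, Ndufb8, Ndufb2, Cox7a2, Atp5f1 and Atp5j. The comparisons with control share the control libraries, and both comparisons with KD share the KD libraries, so these lists are not independent of each other. Among these, Uqcrb in both comparisons and Cycs in KD against control kept an adjusted p under 0.05 in all 17 other settings, and each of the rest lost it in at least 1. The 17 include adjusted p alone, which repeats the adjusted p of the main fit.

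The middle of the set lay close to 0. The median log2 fold change of the tested members was 0.08 in OE against control, -0.03 in KD against control and 0.11 in OE against KD. The same medians over all genes tested were 0.0015, 0.0019 and -0.01. In OE against control 60 members lay above 0 and 19 below, in KD against control 37 and 42, and in OE against KD 61 and 18. The pooled SD of the members' median between replicate libraries was 0.0396 log2 units, and leaving out control 2 raised the OE median to 0.12. The KD median changed sign with the scaling, as it came to 0.05 with library totals alone and 0.01 with upper quartile scaling, where the median of all genes was 0.08 and 0.05.

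The counts were high enough to bound most members closely. The 95% interval of the fold change lay wholly within 1.5-fold for 64 members (81%) in OE against control, 59 (74.7%) in KD against control and 65 (82.3%) in OE against KD. For all genes tested those shares were 29.8%, 21% and 31.2%. The median SE of a member's log2 fold change was 0.12, 0.13 and 0.12 in the same order, against 0.26, 0.28 and 0.24 over all genes. The tested members' mean level ran from 2.32 to 1443 CPM with a median of 196 CPM, so the widest intervals belonged to scarce members such as Cox7b2, Ndufs8 and Cox6b2.

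**Figure D2:**
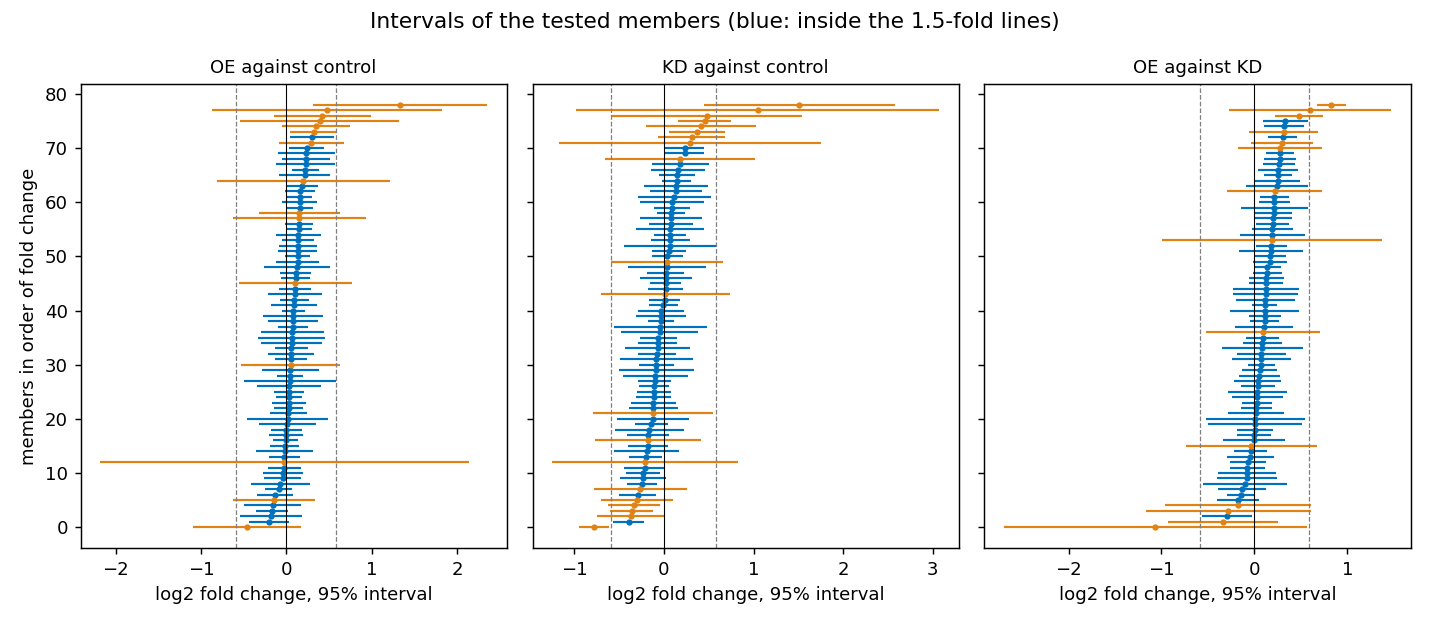
Log2 fold change with its 95% interval (horizontal axis) for each of the 79 tested members, ordered by fold change (vertical axis), in the 3 comparisons. Blue intervals lie inside the dashed 1.5-fold lines (64, 59 and 65 members), and orange ones cross or lie outside them.

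MicroRNAs guide silencing through their seed, bases 2 to 8, which pairs with matching sites in 3' UTRs. The mature miR-218-5p sequence (RefSeq, GRCm38.p6) is shown with its seed in capitals because the seed defines the sites searched for among the members. Both precursor genes, Mir218-1 and Mir218-2, carry this same mature sequence.
mmu-miR-218-5p: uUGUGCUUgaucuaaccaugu

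A 7-base match to this seed is AAGCACA. It occurred in the longest annotated 3' UTR of 5 of the 79 tested members (6.33%), against 1804 of 11133 tested genes with an annotated 3' UTR (16.2%). The 8-base form AAGCACAA occurred in 0 members and in 527 tested genes. Members' 3' UTRs are short, with a median of 201 bases against 1304 bases over all tested genes, and the shares were not adjusted for that. The 6 sites in members are printed below on the gene's strand with 10 bases on each side and the match in capitals (mm9).
Atp5s, chr12:70845194-70845200, plus strand: tgaaacctgaAAGCACAggtactgact
Cox7b, chrX:103217471-103217477, plus strand: atgaagaaatAAGCACAgagctgtttt
Ndufa10, chr1:94335920-94335926, minus strand: ttcttttctgAAGCACAttagagcaaa
Ndufa10, chr1:94335635-94335641, minus strand: tggctgctccAAGCACAtgtaacttgc
Ndufb4, chr16:37647474-37647480, minus strand: cagagtcggaAAGCACAgctcagagaa
Uqcrc2, chr7:127802654-127802660, plus strand: ccagaccagcAAGCACAtcaaagtcag

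None of these 5 members was called in a comparison. Atp5s, counted with complex V by symbol, had a log2 fold change of -0.46 in OE against control (SE 0.31, adjusted p 0.457) and -0.12 in KD against control (SE 0.33, adjusted p 0.864). Its 3 OE libraries stood at 17.9, 19.9 and 10.2 CPM against 21.5 and 22.4 CPM in control, so all lay below both controls, with a single OE library well below the rest. Cox7b, Ndufa10, Ndufb4 and Uqcrc2 had log2 fold changes in OE against control of 0.03, 0.15, 0.14 and -0.04. The members that were called, Uqcrb and Cox6b2, held no 7-base match in their 3' UTR.

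Nuclear respiratory factor 1 (NRF1) and ETS-family factors such as GABP (also called NRF2) are the best known activators of respiratory chain promoters, and NRF1 was described through the rat cytochrome c promoter. The letters GCGCATGC, taken for NRF1, and CCGGAAG, taken for ETS factors, were searched on both strands of RefSeq promoter windows of 300 bases (GRCm38.p6). Matches to the 2 words can share at most 1 base, while GCGCATGC overlaps its own reverse complement. Each gene was counted once per word if any of its windows held it. Some genes, such as Atp5c1, Atp5d and Atp5j, had more than 1 window, and the shares were not adjusted for that or for GC content. Of the tested members 67 had a window, and 11 of these (16.4%) held the NRF1 word, against 5.99% of 9648 tested genes and 3.05% of all 27025 genes with a window. The ETS word stood in 16 members (23.9%), against 19.8% of tested genes and 9.93% of all genes, and 22 members (32.8%) held at least 1 of the words, against 24.4% and 12.4%. These are matches of letters and not measured binding.

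The windows of Cycs, Cox6b1 and Cox6b2 are printed because Cycs and Cox6b1 were lower and Cox6b2 higher in KD by adjusted p. All 3 lie on the minus strand and are written along the gene's strand. Capitals mark the NRF1 word in Cycs (chr6:50566520-50566819) and the ETS word in Cox6b1 (chr7:30626065-30626364), and Cox6b2 (chr7:4753045-4753344) has neither.
Cycs: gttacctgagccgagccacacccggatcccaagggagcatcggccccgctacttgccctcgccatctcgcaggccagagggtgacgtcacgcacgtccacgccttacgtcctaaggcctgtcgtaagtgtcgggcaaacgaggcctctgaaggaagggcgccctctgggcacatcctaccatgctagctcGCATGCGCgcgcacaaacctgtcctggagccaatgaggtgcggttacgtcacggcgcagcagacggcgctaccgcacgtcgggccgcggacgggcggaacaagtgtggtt
Cox6b1: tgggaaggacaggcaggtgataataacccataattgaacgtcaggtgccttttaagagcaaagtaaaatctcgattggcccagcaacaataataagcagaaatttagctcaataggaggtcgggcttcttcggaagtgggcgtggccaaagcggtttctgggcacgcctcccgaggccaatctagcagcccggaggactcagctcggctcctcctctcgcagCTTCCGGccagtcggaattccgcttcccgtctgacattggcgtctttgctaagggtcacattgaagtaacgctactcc
Cox6b2: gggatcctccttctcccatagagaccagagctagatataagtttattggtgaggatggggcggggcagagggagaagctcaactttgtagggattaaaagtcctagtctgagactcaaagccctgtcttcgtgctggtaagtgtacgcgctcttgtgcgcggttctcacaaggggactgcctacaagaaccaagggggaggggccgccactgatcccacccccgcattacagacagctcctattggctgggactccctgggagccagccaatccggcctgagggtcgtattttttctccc

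The window of Cycs had a GC content of 65.0% with 32 CpG steps, that of Cox6b1 53.0% with 17, and that of Cox6b2 55.7% with 10. No window was found for Uqcrb in the promoter table.

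Complex I, the NADH dehydrogenase, had 34 of 35 members tested and 0 called by edgeR in any comparison, with 1, 3 and 6 at an unadjusted p under 0.05 in OE against control, KD against control and OE against KD. Its summed level was 5168 and 5643 CPM in control, 5214 and 5224 in KD, and 5654, 5821 and 5660 in OE. The 3 OE libraries thus lay just above the higher control, while the KD libraries lay between the controls, and as shares of library totals OE 1 and control 2 both stood at 0.553%. The median log2 fold change was 0.08 in OE against control, -0.05 in KD against control and 0.11 in OE against KD.

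Ndufb8, an accessory subunit of the membrane arm, stood at 159 and 151 CPM in control, 141 and 105 in KD, and 173, 164 and 176 in OE. Each KD library lay below every other library, and each OE library lay above every control. OE exceeded KD by 0.48 log2 units (SE 0.13, adjusted p 0.0128), a 1.39-fold difference that is under the fold threshold. Without KD 1 this difference passed the threshold at 0.72 log2 units, and without KD 2 it was 0.29 (adjusted p 0.364).

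Ndufb5, another membrane-arm accessory subunit, had 245 and 280 CPM in control, 201 and 207 in KD, and 244, 279.5 and 240.1 in OE. KD was 1.28-fold below control (log2 fold change -0.36, SE 0.12, adjusted p 0.0316), and the KD libraries overlapped no other library. Ndufb2, also of the membrane arm, was 1.21-fold higher in OE than in KD (0.27, SE 0.09, adjusted p 0.042), at 521, 603 and 612 CPM in OE against 491 and 467 in KD. The OE 1 value lay below control 2 (542 CPM). Ndufb2 was also the complex I member with the highest mean level. Annotated exons of Ndufb5 overlap those of Mrpl47 on the other strand by 158 bases. Those of Ndufb2 overlap Adck2 on the same strand by 145 bases, and Braf and Gm16272 on the other strand by 146 and 156. The symbol Ndufb8 covers overlapping annotated genes that share 134 exon bases, and the shorter shares 91 with Sec31b on the same strand.

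Ndufa5, an accessory subunit of the peripheral arm, had 165 and 194 CPM in control, 148 and 202 in KD, and 231, 212 and 219 in OE. All OE libraries lay above all others, with a log2 fold change of 0.30 (SE 0.12, adjusted p 0.158) against control and 0.33 (SE 0.12, adjusted p 0.081) against KD. Without KD 2 it was called in OE against KD, at 0.59.

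The 7 core subunits of complex I encoded in the nucleus, which carry the flavin and iron-sulfur clusters or the quinone site, had log2 fold changes from -0.16 (Ndufv2) to 0.48 (Ndufs8) in OE against control. In KD against control they ran from -0.19 (Ndufv2) to 0.31 (Ndufs1). Ndufs1, the largest iron-sulfur subunit, stood at 79.7 and 85.9 CPM in control, 80.5 and 124 in KD, and 85.5, 107 and 97.8 in OE, so KD 1 lay between the controls and KD 2 above all other libraries. Ndufs8 was scarce, between 3.04 and 6.99 CPM, and its interval was too wide to place it within 1.5-fold. Ndufa9, which binds near the quinone site, was the lowest complex I member in KD against control (-0.37, SE 0.19, adjusted p 0.203). Ndufs5 had 0 counts in all libraries. Of the 903 50-base windows of its annotated transcripts, 42.2% occur elsewhere in mm9, while 428 lie in the gene and nowhere else. The reason for the lack of counts was not tested.

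Complex II, succinate dehydrogenase, also works in the citric acid cycle. All 4 of its members were tested and 0 were called by edgeR (unadjusted p under 0.05 for 0, 0 and 1), and each interval lay within 1.5-fold in all 3 comparisons. Sdha, the flavin subunit, stood at 312 and 323 CPM in control, 315 and 285 in KD, and 317, 296 and 323 in OE, with the groups overlapping. Sdhd, a membrane anchor, had the highest difference of the complex between OE and KD (0.25, SE 0.11, adjusted p 0.165). Sdhb, the iron-sulfur subunit, and Sdhc, the other anchor, stayed between -0.07 and 0.10 log2 units in every comparison.

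Complex III, cytochrome bc1, held Uqcrb, the member called with the smallest adjusted p. Uqcrb, the subunit known as ubiquinone-binding protein, had 1270 and 1156 CPM in control, 692 and 717 in KD, and 1355, 1215 and 1182 in OE, from counts of 1804 to 4455 per library. Both KD libraries lay far below all others, and the OE and control libraries overlapped. KD was at 705 ± 17.8 CPM (SD, n = 2) against 1213 ± 80.6 (n = 2) in control and 1251 ± 91.6 (n = 3) in OE. The log2 fold change was -0.78 in KD against control (SE 0.08, adjusted p 1.95e-08), 0.83 in OE against KD (SE 0.08, adjusted p 1.63e-09) and 0.04 in OE against control (SE 0.07, adjusted p 0.818). In the authors' deposited table, Uqcrb is likewise the member called in KD against control (log2 fold change -0.79) and in OE against KD (0.83), with no member called in OE against control.

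**Figure D3:**
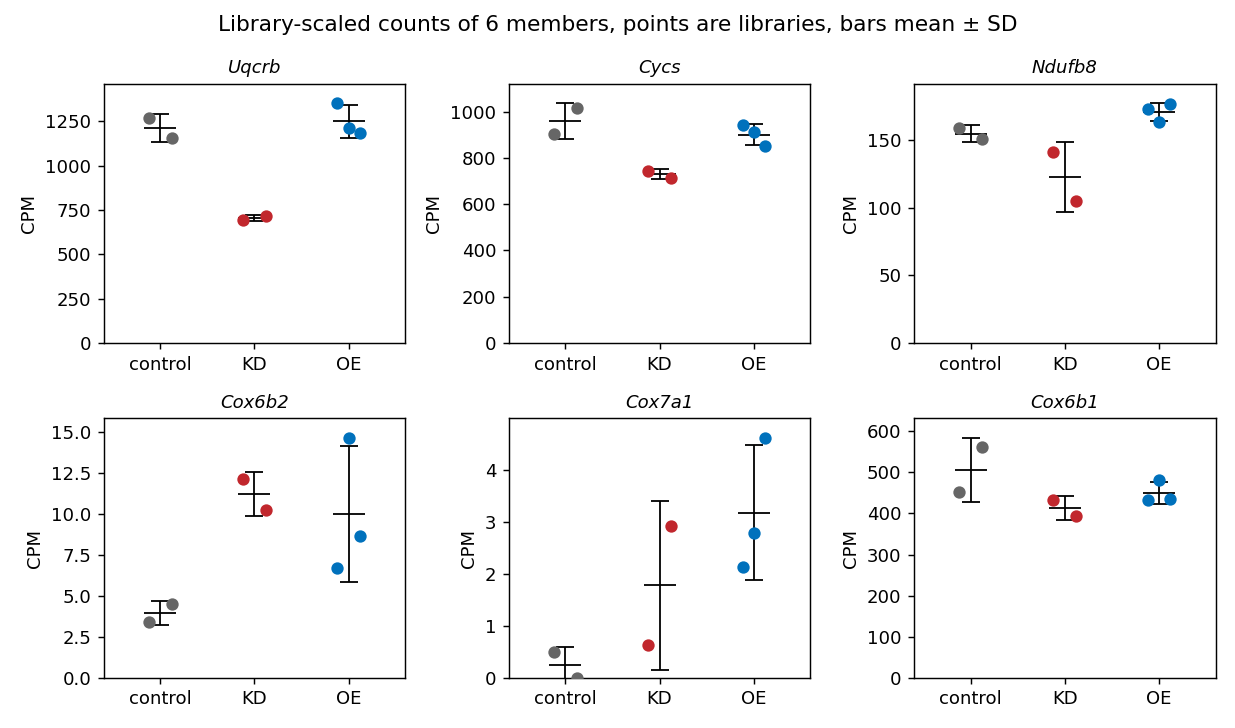
CPM by library (points) for 6 members in control (n = 2), KD (n = 2) and OE (n = 3), with horizontal bars at the mean and whiskers of 1 SD, each panel on its own axis from 0. Both KD points of Uqcrb (692 and 717 CPM) and of Cycs (744 and 715 CPM) lie below all other libraries, and both control points of Cox6b2 (3.42 and 4.48 CPM) lie below the rest.

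Uqcrb lies at chr13:67001553-67006314 on the minus strand of mm9, and 61.5% of the 486 50-base windows of its annotated transcripts also occur elsewhere, at 5 other places of which 3 overlap annotated pseudogenes. Uniquely mapped reads were counted, so its counts come from the remaining sequence and depend on how reads of the copies were assigned. Its exons share 50 bases with Gm10767 on the other strand, and the strand setting of the counting is not given in the sources used here. The other 8 complex III members together gave 1582 and 1612 CPM in control, 1671 and 1609 in KD, and 1700, 1765 and 1654 in OE. Without Uqcrb, then, the KD sums did not lie below the controls.

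Uqcr10, a small subunit next to cytochrome c1, went the other way in KD: it had 99.7 and 97.4 CPM in control, 141 and 129 in KD, and 115, 125 and 129 in OE. All 5 libraries of KD and OE lay above both controls. KD was 1.37-fold above control (log2 fold change 0.45, SE 0.15, adjusted p 0.0331), and OE was 1.25-fold above control without passing the test (0.32, SE 0.14, adjusted p 0.181). Of the catalytic and core subunits, Cyc1 (cytochrome c1) had log2 fold changes of -0.18 in OE and -0.30 in KD against control, and Uqcrfs1 (the Rieske iron-sulfur protein) had 0.13 and 0.08, with no call. Uqcrc1, a core subunit counted at up to 9.09 CPM, had intervals too wide to place it within 1.5-fold.

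Cytochrome c carries electrons from complex III to complex IV and, once released from mitochondria, starts apoptosis. Cycs, which encodes the somatic form, stood at 904 and 1015 CPM in control, 744 and 715 in KD, and 942, 911 and 850 in OE. The KD libraries lay below all others, and OE and control overlapped. KD was 1.31-fold below control (log2 fold change -0.39, SE 0.08, adjusted p 0.00107) and OE was 1.24-fold above KD (0.30, SE 0.08, adjusted p 0.00834), both under the fold threshold. The 95% interval in KD against control ran from -0.57 to -0.22 and lay within 1.5-fold. Of the 3074 windows of the Cycs transcripts, 38.5% occur elsewhere in mm9, where 8 annotated pseudogenes are overlapped.

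Complex IV, cytochrome c oxidase, had 14 of 20 members tested. The summed level was 6154 and 6291 CPM in control, 6068 and 6174 in KD, and 6464, 6698 and 6283 in OE, which overlap between control and both other groups. Ndufa4 stood at 1128 and 1069 CPM in control, 1232 and 1193 in KD, and 1040, 1151 and 1091 in OE, with KD above all other libraries (log2 fold change 0.14 against control, SE 0.08, adjusted p 0.242).

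Cox6b2, the form of subunit 6b known from testis, had 7 and 7 counts in control, 39 and 35 in KD, and 22, 42 and 28 in OE. In CPM these were 3.42 and 4.48, 12.2 and 10.3, and 6.69, 14.7 and 8.64, so the controls lay below all KD and OE libraries. It was called in KD against control (log2 fold change 1.51, SE 0.52, adjusted p 0.047) and not in OE against control (1.34, SE 0.50, adjusted p 0.11). The ratio of summed counts per library total was 3.04 for KD (95% counting interval 1.7 to 5.84) and 2.55 for OE (1.45 to 4.85), and these intervals cover counting error only. KD and OE did not differ by the test (-0.17 for OE against KD, SE 0.39, adjusted p 0.866). The call in KD was lost in 8 of 17 other settings, including DESeq2 (adjusted p 0.102), limma-voom (0.135), leaving out either control (0.205 and 0.0869) and leaving out either KD library (0.185 and 0.105). Over all 17 the adjusted p ran from 0.0351 to 0.205.

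Its widespread partner Cox6b1 had 451 and 562 CPM in control, 433 and 393 in KD, and 434, 481 and 436 in OE. KD lay below both controls, by 1.22-fold (log2 fold change -0.29, SE 0.10, adjusted p 0.0499), while OE overlapped control. Over other settings that adjusted p ran from 0.00406 to 0.546. Per kilobase of annotated exon, the median level over the 7 libraries was 863 CPM for Cox6b1 and 15.7 CPM for Cox6b2.

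The same order held in the other isoform pairs, on the same scale of CPM per kilobase. The heart and muscle forms were scarce: Cox6a2 was at a median of 0 against 658 for Cox6a1, Cox7a1 at 5.85 against 672 for Cox7a2, and Cox8b had no count against 609 for Cox8a. Cox4i2, the lung form, was at a median of 0 against 83.0 for Cox4i1. Cox7b2 was at 3.93 against 488 for Cox7b, Ndufa4l2, a gene known to rise in hypoxia, at 0 against 2293 for Ndufa4, and Cox8c had no count. For Cox8b, Cox8c and Ndufs5 a count of 0 allows up to 3 counts per library, for counting error only.

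Cox7a1 had 1 and 0 counts in control, 2 and 10 in KD, and 7, 8 and 15 in OE. All OE libraries lay above both controls, and KD 1 lay near them. The ratio to control was 11.6 for OE (95% counting interval 1.94 to 475) and 6.91 for KD (1.02 to 295), on a control total of 1 count. Cox7a1 did not pass the filter on low counts, and with no filter its adjusted p was 0.136 in OE and 0.33 in KD against control. Cox7b2 had 0 and 6 counts in control, 12 and 12 in KD, and 7, 6 and 3 in OE, and in CPM the controls span the KD and OE values. Its log2 fold change was 1.04 in KD against control (SE 1.00, adjusted p 0.548).

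Cox7a2, the liver form of subunit 7a, was higher in OE than in KD (log2 fold change 0.26, SE 0.08, adjusted p 0.0478). It stood at 512, 539 and 507 CPM in OE, 456 and 410 in KD, and 483 and 535 in control, with KD below all others. Cox7a2l, a related protein known for joining complexes III and IV, had log2 fold changes of -0.20 in OE and -0.03 in KD against control, with no call. Cox8a, the common form of subunit 8, had 288 and 314 CPM in control, 385 and 322 in KD, and 332, 380 and 352 in OE. All KD and OE libraries lay above the controls, with adjusted p of 0.164 in OE and 0.153 in KD.

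Complex V, the ATP synthase, had all 17 members tested and 0 called by edgeR (unadjusted p under 0.05 for 2, 3 and 5). Its summed level was 7921 and 7960 CPM in control, 7755 and 7747 in KD, and 8520, 8733 and 8338 in OE, so the 3 groups did not overlap, with OE highest and KD lowest, but as shares of library totals KD (0.806% and 0.793%) lay above control (0.772% and 0.781%). OE was highest on both scales. A log2 fold change above 0 was held by 14 of 17 members (82.4%) both in OE against control and in OE against KD. Over all genes tested those shares were 50.1% and 48.7%. Complex I leaned the same way, with 27 of 34 tested members (79.4%) above 0 in both comparisons.

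Atp5f1, subunit b of the stator stalk, stood at 826 and 789 CPM in control, 675 and 684 in KD, and 836, 796 and 840 in OE. KD lay below all others, 1.19-fold under control (log2 fold change -0.25, SE 0.08, adjusted p 0.0351) and 1.21-fold under OE (0.28, SE 0.07, adjusted p 0.0138). Its exons share 337 bases with Wdr77 on the other strand. Atp5j, the coupling factor 6 of the stalk, had 824, 855 and 805 CPM in OE, 702 and 687 in KD, and 772 and 725 in control. OE exceeded KD by 0.25 log2 units (SE 0.07, adjusted p 0.0278), and the 3 groups did not overlap. Atp5j exons share 397 bases with Gabpa, the gene of a GABP subunit.

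Atp5o, the stalk subunit OSCP, had 592 and 608 CPM in control, 619 and 589 in KD, and 682, 727 and 695 in OE. All OE libraries lay above all others. OE was 1.17-fold above control, with an adjusted p of 0.08 by edgeR (log2 fold change 0.22, SE 0.08). In the authors' deposited table the adjusted p of Atp5o in OE against control is 0.0314 with a log2 fold change of 0.23, under the fold threshold. Its annotated exons overlap those of Donson on the same strand by 287 bases. The catalytic F1 head (Atp5a1, Atp5b, Atp5c1, Atp5d, Atp5e) had log2 fold changes from -0.02 to 0.42 in OE and -0.20 to 0.41 in KD against control. The upper end was Atp5d in both, at 14.7 and 22.4 CPM in control, 24.4 and 24.3 in KD, and 24.0, 25.2 and 24.4 in OE.

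The membrane ring of the synthase is made of subunit c, which 3 genes encode with the same mature protein. Atp5g3 stood at 1411 and 1424 CPM in control, 1364 and 1406 in KD, and 1489, 1547 and 1458 in OE, and Atp5g1 between 49.4 and 66.6 CPM. Atp5g2 had 95.3 and 117 CPM in control, 147 and 126 in KD, and 103, 117 and 114 in OE. Both KD libraries were the highest, with a log2 fold change of 0.37 against control (SE 0.15, adjusted p 0.104). All 598 windows of the annotated Atp5g2 transcripts occur elsewhere in mm9, so its level is uncertain. Of the members counted with complex V by symbol, Atp5sl, at 5.31 to 10.2 CPM, had the highest log2 fold change in OE against KD (0.60, SE 0.43, adjusted p 0.473).

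**Figure D4:**
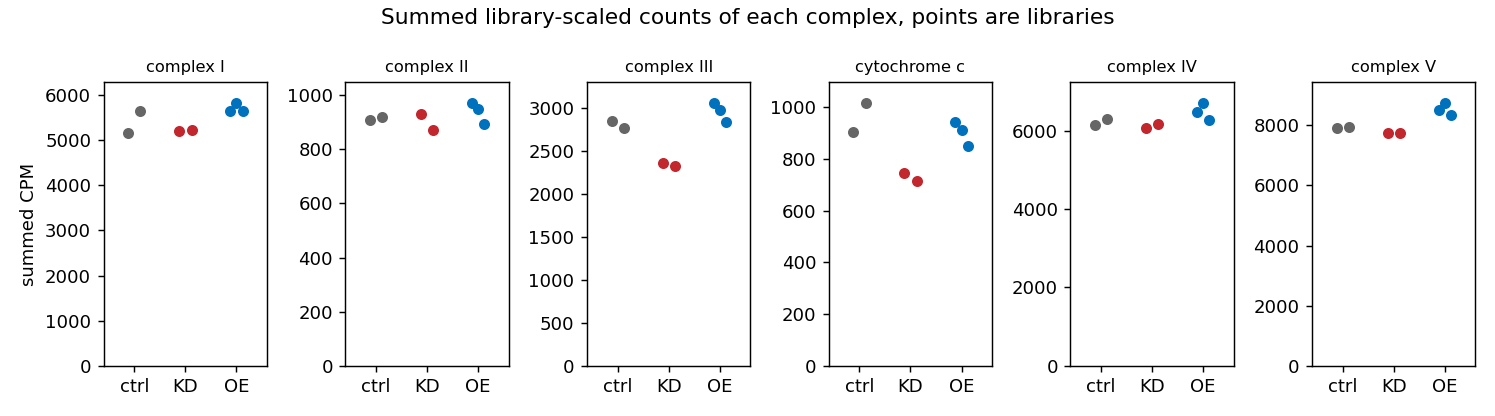
Summed CPM of the members of each complex (vertical axes from 0, one scale per panel) in each library (points) of control, KD and OE. Complex III is lowest in KD (2363 and 2326 CPM against 2852 and 2768 in control), and complex V is highest in OE (8520, 8733 and 8338 CPM against 7921 and 7960).

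Together the 86 members took 2.37% ± 0.058 (SD, n = 2) of counts in control, 2.38% ± 0.0269 (n = 2) in KD and 2.52% ± 0.0678 (n = 3) in OE. Library values ran from 2.33% to 2.41% in control, 2.36% to 2.40% in KD and 2.46% to 2.59% in OE. OE lay above all other libraries by these shares.

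Assembly factors build the complexes without staying in them. Of 42 such genes in the table, 40 were tested and Cox11, which delivers copper to complex IV, was called in both OE and KD against control. Cox11 had 70.4 and 67.3 CPM in control, 37.5 and 39.9 in KD, and 40.1, 32.8 and 47.2 in OE, with both controls above all others. Its log2 fold change was -0.78 in OE (SE 0.20, adjusted p 0.0122) and -0.83 in KD (SE 0.22, adjusted p 0.00763). Both comparisons share the control libraries. The median over assembly factors was -0.08 in OE and -0.16 in KD against control. Of the chain's subunits whose symbols do not follow the rule, 4 of 17 listed genes were in the count table: Ndufab1, Atpif1, Usmg5 and 2010107E04Rik. Of these 4, 0 were called by edgeR (unadjusted p under 0.05 for 2, 1 and 3). Atpif1, the ATP synthase inhibitor, was the highest of them in OE against control (0.28, SE 0.10, adjusted p 0.0801) and in KD against control (0.22, SE 0.11, adjusted p 0.163), and the lowest in OE against KD (0.06). Usmg5, a small ATP synthase subunit, was the lowest in OE (0.10) and KD against control (-0.17), and Ndufab1, the mitochondrial acyl carrier protein, was the highest in OE against KD (0.30, SE 0.10, adjusted p 0.0673). The 13 mitochondrially encoded subunits, listed by their mt- symbols, had no row in the count table under those symbols and were not analysed here.

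Among 17 genes of pyruvate dehydrogenase and the citric acid cycle, Suclg2, a subunit of succinyl-CoA synthetase, was called. It had 8.80 and 7.69 CPM in control, 29.6 and 32.3 in KD, and 13.1, 18.2 and 20.7 in OE, and the 3 groups did not overlap. KD exceeded control by 1.89 log2 units (SE 0.35, adjusted p 0.00019) and OE was below KD (-0.84, SE 0.26, adjusted p 0.0411). Of 14 tested genes of mitochondrial biogenesis and mtDNA upkeep, Ppargc1b, a transcriptional coactivator of mitochondrial genes, had 3.91 and 6.41 CPM in control, 12.8 and 16.1 in KD, and 10.6, 12.2 and 6.79 in OE, with the controls lowest. It rose in KD (1.51, SE 0.47, adjusted p 0.0252), and the other 13 were not called. Ppargc1a, its better known relative, had -0.43 in OE (adjusted p 0.132) and -0.22 in KD (adjusted p 0.485). Of 22 genes of import, carriers and chaperones 0 were called by edgeR (unadjusted p under 0.05 for 4, 3 and 4). The highest of them in all 3 comparisons was Timm50, of the inner membrane translocase, with 5 and 0 counts in control, 3 and 12 in KD, and 10, 13 and 8 in OE. By raw count, all OE libraries of Timm50 lay above both controls and KD 1 lay between them, but both controls were the shallowest libraries. Its log2 fold change was 1.28 in OE (SE 0.96, adjusted p 0.516) and 0.72 in KD against control (SE 1.05, adjusted p 0.725), and 0.56 in OE against KD (SE 0.78, adjusted p 0.763). The lowest was Tomm5, of the outer membrane translocase, in OE against control (-0.44, SE 0.12, adjusted p 0.0161), under the fold threshold. In KD against control the lowest was Tomm70a, an import receptor (-0.28, SE 0.10, adjusted p 0.0558), and in OE against KD it was Pmpca, a subunit of the processing peptidase (-0.40, SE 0.15, adjusted p 0.0872).

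Of 19 tested glycolysis genes, Aldoa, an aldolase, had 239 and 208 CPM in control, 145 and 119 in KD, and 195, 214 and 207 in OE, with KD below all others. It fell in KD against control (-0.77, SE 0.13, adjusted p 5.1e-05) and was higher in OE than in KD (0.64, SE 0.12, adjusted p 0.000255). Of 9 tested hypoxia-response genes, P4ha1, a collagen prolyl hydroxylase, had 40.1 and 23.7 CPM in control, 81.5 and 67.2 in KD, and 56.9, 73.0 and 65.1 in OE, with the controls lowest. It rose in OE (1.00, SE 0.22, adjusted p 0.00309) and KD (1.19, SE 0.23, adjusted p 0.000302), and Ndrg1 rose in KD (0.72, SE 0.21, adjusted p 0.019).

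Markers of other cell types moved between the same groups. The 8 astrocyte and radial glia markers summed to 2129 to 2502 CPM in control, 3274 to 3952 in KD and 3916 to 4086 in OE, with 3 called higher in OE and 4 in KD. Below 0 lay 1 of the 8 in OE and 2 in KD against control. Gfap had the highest log2 fold change of them in OE against control (1.13) and the lowest in KD against control (-0.63). The 10 muscle markers, of which Des and Myod1 were at 0, summed to 183.2 to 183.3 CPM in control, 810 to 867 in KD and 343 to 484 in OE. Of 5 tested muscle markers 4 rose in OE and 5 in KD, and 4 were lower in OE than in KD. All 4 markers of dividing cells rose in KD and in OE, from a sum of 107 to 118 CPM in control to 347 to 382 in KD and 173 to 253 in OE. The 10 pan-neuronal markers summed to 7574 to 7658 CPM in control, 5530 to 5618 in KD and 6934 to 7388 in OE. In KD against control Nefl, Nefm and Mapt were called lower, and the other 7 were not called. There 9 lay below 0 and 1 above, from -1.42 (Nefm) to 0.22 (Syt1), with a median of -0.24. The interval lay wholly within 1.5-fold for 6 of the 10. In OE against KD 3 were called higher, with 6 above 0 and 4 below. The 7 fibroblast markers summed to 158 to 173 CPM in control, 252 to 285 in KD and 217 to 286 in OE. Of 5 tested, 2 were called higher in OE and 1 in KD against control. In KD 3 lay above 0 and 2 below, from -0.35 (Col3a1) to 0.97 (Fn1). The 7 oligodendrocyte markers summed to 55.1 to 90.4, 95.8 to 106 and 60.8 to 96.3 CPM, and the 5 microglial markers, with Csf1r at 0, to 29.5 to 31.8, 29.9 to 30.6 and 24.5 to 33.9 CPM, in the same order. The part of these cell types in the differences of Uqcrb, Cycs, Cox6b2, Cox7a1 and the other members was not tested.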

How the data were processed

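RNA was sequenced from 7 libraries of lentivirus-transduced motor neuron cultures (2 control, 2 KD, 3 OE, from the titles). Single 50-base reads were called with CASAVA 1.8.2, mapped with TopHat2 2.0.10 to mm9 and assigned to genes by HTSeq-count 0.6.1p1 where they mapped uniquely, per the labels' protocols. Neither annotation nor strand setting is stated there. Raw counts of 23366 genes were the deposited values analysed. The authors' deposited table of DESeq2 1.4.5 results (log2 fold change, adjusted p-value; version per the labels' protocols) is quoted only where named. Members and gene lists were chosen with earlier results of these data known.

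The count table was fitted with edgeR 4.0.16 under R 4.3.3, using filterByExpr by group (12134 genes), TMM scaling and a robust two-sided quasi-likelihood F test in 1 fit of 7 libraries (4 residual degrees of freedom, prior 28.1, biological coefficient of variation 12.5%), with Benjamini-Hochberg adjustment over all tested genes and the thresholds the labels' protocols state, 0.05 for adjusted p and 1.5 for fold. CPM are counts over the TMM-scaled library size, and CPM per kilobase divides by all annotated exon bases of the gene. Members named in the text were those called, the highest and lowest in fold change of each complex and comparison, the highest in level, the isoform pairs and those under the filter, and of other lists the genes called or, with none, the extremes. A member chosen by this rule is not reported here. Others passing adjusted p alone or an unadjusted p of 0.05, or holding a seed site, were named after their values were seen. Alternatives were DESeq2 1.42.0, limma-voom (limma 3.58.1), other scalings and filters, fits of 2 groups, a replicate block, leaving out each library and adjusted p alone. The last reuses the main fit without the fold threshold, so no call can be lost there. The pipeline was tested on simulated data, with changes given to genes drawn from all tested genes. In OE against control, KD against control and OE against KD, it called 18%, 24% and 26% of 1.5-fold changes. For 2-fold changes the shares were 62%, 38% and 64%, and 6 unchanged genes were called in each comparison. A 1.5-fold change lies at the fold threshold itself. Window copies and seed sites used mm9 with its GENCODE annotation. Promoters and microRNAs came from RefSeq tables of GRCm38.p6.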

Additional observations from a re-analysis of the deposited data

How the results depend on the processing

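The calls of Uqcrb in KD against control and in OE against KD were kept under all 17 alternatives, with log2 fold changes from -0.85 to -0.71 and from 0.76 to 0.87. Among the 17, adjusted p alone could not lose a call. Members called in KD against control came to 1 with DESeq2, with limma-voom and in the fit of the 2 groups alone, since Cox6b2 was lost, to 1 to 2 when libraries were left out in turn, and to 7 by adjusted p alone. Those in OE against KD came to 7 by adjusted p alone and to 1 to 2 with libraries left out, with Ndufb8 added without KD 1 and Ndufa5 without KD 2. In OE against control every alternative gave 0. The members' median log2 fold change in OE against control ran from 0.0707 to 0.116 with libraries left out. In KD against control it was 0.0457 with library totals alone and 0.0117 with upper quartile scaling, and ran from -0.0642 to 0.00827 with libraries left out, above 0 without control 2. In OE against KD it was 0.0485 with library totals alone.

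Genes called over the whole table were 370 with limma-voom in OE against control (596 in the main analysis) and 340 to 592 with libraries left out, lowest without control 2 and 397 without OE 3. They were 882 to 1399 in KD against control, lowest without KD 2, and 973 by adjusted p alone and 371 to 765 in OE against KD, lowest without KD 1 and 377 without KD 2. With library totals alone the higher share of calls was 70.8% in place of 59.8% in KD against control, and 40.1% in place of 55.4% in OE against KD. Of 4026 log2 fold changes of tested members under alternatives, 4005 kept their status as called or not called. A further 13 were newly called, 8 lost their call (Cox6b2 in KD) and 216 uncalled values changed sign. The newly called values were Ndufb8 without KD 1 and Ndufa5 without KD 2, and otherwise members under adjusted p alone. That setting has no minimum fold, so those members did not pass the fold threshold. Replicate numbers did not pair the libraries (same-number correlations from -0.0538 to 0.0258). With the number as a block, 0, 2 and 1 members and 464, 1395 and 556 genes were called in OE against control, KD against control and OE against KD. The cause of these shifts was not tested. Depth limits members under about 10 CPM, whose intervals exceed 1.5-fold. Intervals of some members above that level exceed it too, such as Atp5s in OE against control and Ndufb8 in OE against KD.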
